A study of Mus musculus with 24 samples.

Results

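Expression of the MEF2 transcription factors was examined in neural retina and eye cup of PRDM13-OE mice and wildtype littermates. The 3 members were the genes named Mef2a, Mef2c and Mef2d, which gave 3 of the 56748 rows of the gene table. They were chosen by the counts of Mef2c, whose fall in PRDM13-OE + dox against wildtype + dox retinas was already known, and the paralogs were set beside it. The values of that comparison are therefore a description. PRDM13-OE mice (heterozygous) carry 1 copy of a knock-in at Rosa26 on C57BL/6J, in which the ubiquitous EF-1α promoter drives the reverse tetracycline transactivator and the TRE3G promoter drives human PRDM13. Every cell type with the knock-in can therefore respond to doxycycline (dox), and no group limits PRDM13 to photoreceptors. Mice of both genotypes were left untreated or drank water with 2 mg/mL dox and 10% sucrose over 72 hours, at about a month of age. Sucrose is not given for the untreated mice, so dox and sucrose cannot be told apart. Each of 12 mice, male and female, gave a neural retina and an eye cup sample (sclera, choroid and retinal pigment epithelium, RPE), for 8 groups of 3 libraries (24 in all).

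MEF2 proteins are MADS-box transcription factors that bind A/T-rich sites and are held in check by class IIa histone deacetylases (Hdac4, Hdac5, Hdac7 and Hdac9). Calcium-dependent kinases, p38 and ERK5 kinases and the phosphatase calcineurin relieve that repression or raise MEF2 activity. In photoreceptors, MEF2D acts beside CRX at genes of the outer segment, and Mef2c is transcribed under NRL, the rod determination factor, from a start site of its own. Mef2c is also expressed in endothelium, microglia, muscle and some amacrine cells, so its level in a whole tissue sums several sources. In bulk RNA, fewer cells of a type and less RNA per cell cannot be told apart.

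The libraries held 15825059 to 24908314 counts each. The human transgene is not a row of the mouse gene table. Mouse Prdm13 lay between 44.9 and 60.3 CPM (counts scaled to a common library total) over the 12 retinas, at 53.0 to 60.3 CPM in PRDM13-OE + dox and 47.1 to 50.5 CPM in wildtype + dox retinas, and between 0 and 29.4 CPM in the eye cups. The induced human PRDM13 is therefore not checked by these values. The tissue labels were checked by summed marker levels. Retinas held 50349 to 75047 CPM over 8 rod markers and 64.8 to 427 CPM over 8 RPE markers. Eye cups held 7480 to 49631 CPM over the RPE markers, but also 2889 to 45611 CPM over the rod markers, so every eye cup library contained retinal transcripts. Lens markers (12 genes) ranged from 4.64 to 26.1 CPM in PRDM13-OE + dox retinas and from 102 to 11242 CPM in wildtype + dox retinas.

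On GRCm39, Mef2a (ENSMUSG00000030557) lies at chr7:66880911-67022606 on the minus strand, Mef2c (ENSMUSG00000005583) at chr13:83652153-83815199 on the plus strand and Mef2d (ENSMUSG00000001419) at chr3:88049679-88079393 on the plus strand. All 3 matched a promoter entry of RefSeq (table of GRCm38.p6), with 3 start sites for Mef2c and 1 each for the paralogs. Among transcript starts in the GENCODE annotation, 36 of 45 lay within 50 bases of the Mef2a site and 20 of 44 within 50 bases of the Mef2d site. For Mef2c only 0, 0 and 2 of 167 lay that near to start sites 1, 2 and 3. Each window of 300 bases, from 250 before to 50 from the start site, was found unchanged on GRCm39. One window per gene is shown. For Mef2c it is the 1 of its 3 windows that holds TGCTGA, so that window was picked for the motif. Capitals mark TGCTGA, the core of the element bound by Maf proteins, the family of NRL, searched on both strands.

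Mef2c, start site 3, chr13:83721476-83721775, plus strand: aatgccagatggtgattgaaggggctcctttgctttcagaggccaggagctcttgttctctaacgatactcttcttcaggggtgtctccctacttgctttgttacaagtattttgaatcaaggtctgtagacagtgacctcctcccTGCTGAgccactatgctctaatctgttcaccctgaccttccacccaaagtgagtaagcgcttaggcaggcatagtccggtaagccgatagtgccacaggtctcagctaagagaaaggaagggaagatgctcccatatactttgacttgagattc
Mef2d, chr3:88049429-88049728, plus strand: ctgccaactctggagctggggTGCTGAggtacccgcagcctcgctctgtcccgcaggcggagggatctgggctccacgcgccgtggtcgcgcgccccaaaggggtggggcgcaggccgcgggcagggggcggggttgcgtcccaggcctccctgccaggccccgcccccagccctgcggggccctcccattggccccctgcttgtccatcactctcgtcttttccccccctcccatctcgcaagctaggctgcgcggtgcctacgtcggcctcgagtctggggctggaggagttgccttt
Mef2a, chr7:67022557-67022856, minus strand: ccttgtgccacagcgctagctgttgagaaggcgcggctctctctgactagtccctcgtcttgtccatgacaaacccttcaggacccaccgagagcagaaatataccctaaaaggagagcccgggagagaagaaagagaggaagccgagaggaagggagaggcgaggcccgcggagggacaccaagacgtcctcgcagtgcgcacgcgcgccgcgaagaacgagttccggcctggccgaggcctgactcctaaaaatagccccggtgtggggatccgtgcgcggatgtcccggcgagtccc

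TGCTGA began at position −104 from Mef2c start site 3 and at −229 from the Mef2d start site, and it did not occur in the Mef2a window or in the windows of Mef2c start sites 1 and 2. It occurred in 19.5% of the 32851 promoter windows of the table, so its presence is common. TAATCC, the core bound by CRX and OTX2, was in none of the 5 windows and in 7.06% of all windows. CANNTG, the E-box, was found 2 times at Mef2c start site 1 and 1 time at start site 3, and it was in 72.3% of all windows. The windows also differed in base composition. GC content was 72.0% for Mef2d and 62.3% for Mef2a, and 35.7%, 47.0% and 48.3% for the Mef2c start sites 1, 2 and 3, against a median of 52.7% over all windows. These matches describe letters in short windows, not binding.

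Mef2d was by far the most abundant member of the family per transcript length. In untreated wildtype retinas, the FPKM values (the authors' level scaled to transcript length and library size) were 84.0, 70.8 and 83.0 for Mef2d. Mef2a followed at 7.10, 6.09 and 6.99 FPKM, and Mef2c was at 5.65, 6.11 and 5.69 FPKM. Mef2a and Mef2c overlapped in level, whereas every Mef2d value lay above both. Mef2d made up 86.3% of the summed FPKM of the 3 members in these retinas. Mef2b, the fourth family gene, lay at 9 to 43 counts per library. Its span overlaps that of Borcs8 on the same strand, so its few reads are uncertain, and it passed an adjusted p of 0.05 in none of the comparisons tested.

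**Figure D1:**
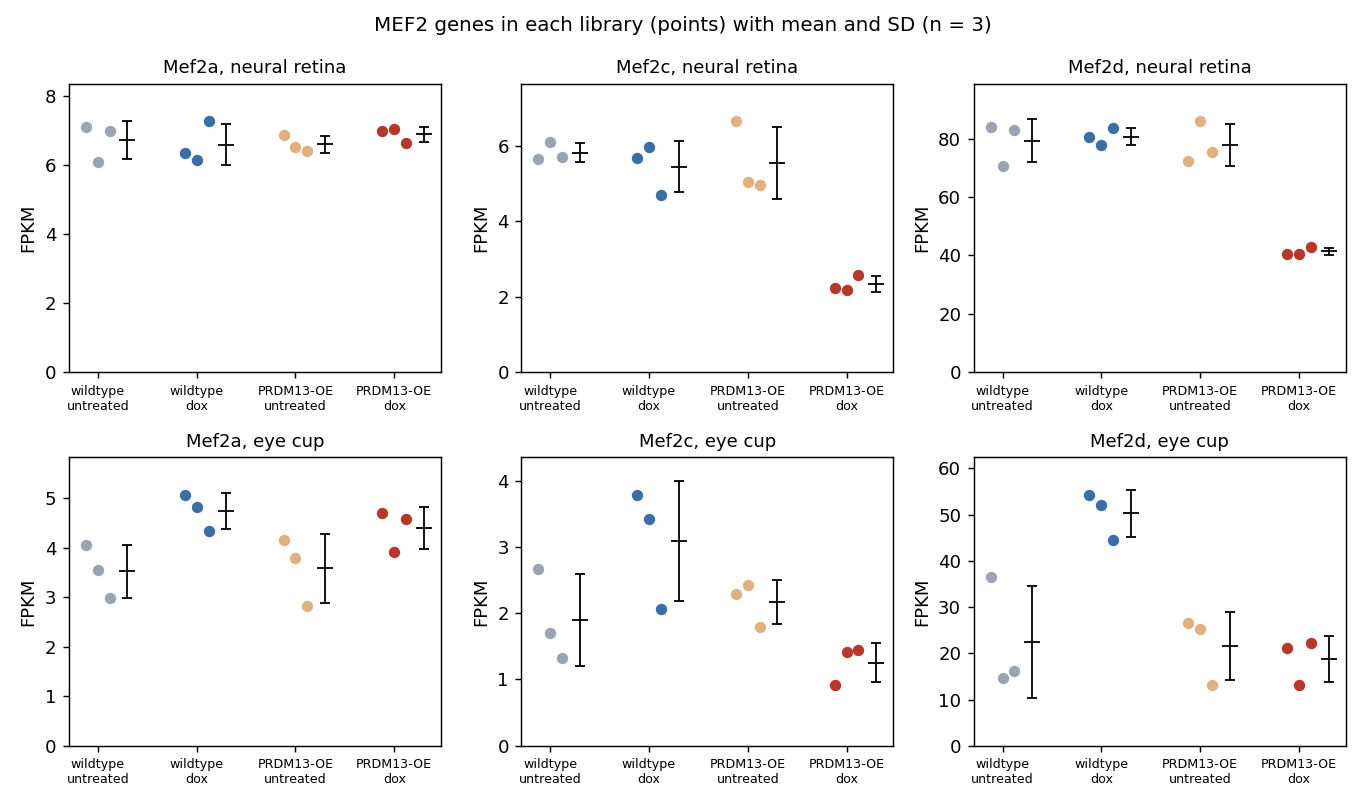
FPKM of Mef2a, Mef2c and Mef2d in 12 neural retinas (top) and 12 eye cups (bottom), 1 point a library, with the mean and SD of 3 libraries at the right of each group. In retinas the 3 PRDM13-OE + dox libraries are the lowest for Mef2c (2.18 to 2.56) and Mef2d (40.5 to 42.9), while Mef2a stays between 6.09 and 7.27 in all 12.

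In the neural retina of PRDM13-OE + dox mice, Mef2c and Mef2d were both lower and Mef2a was not. Mef2c was at 2.22, 2.18 and 2.56 FPKM in PRDM13-OE + dox retinas and at 5.68, 5.97 and 4.69 FPKM in wildtype + dox retinas. Mef2d was at 40.6, 40.5 and 42.9 FPKM in PRDM13-OE + dox retinas against 80.5, 77.9 and 83.6 FPKM in wildtype + dox retinas. In each gene the lowest wildtype library lay far above the highest PRDM13-OE library. Mef2a, at 6.97, 7.06 and 6.65 FPKM against 6.34, 6.15 and 7.27 FPKM, overlapped between the genotypes.

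On CPM scaled by trimmed mean of M values (TMM), Mef2c was at 40.4 ± 3.75 CPM in PRDM13-OE + dox and 92.1 ± 11.6 CPM in wildtype + dox retinas (SD, n = 3). The fitted log2 fold change, from edgeR's quasi-likelihood model, was −1.19 (SE 0.092). Mef2d was at 273.7 ± 9.75 CPM against 519 ± 17.0 CPM (SD, n = 3), a log2 fold change of −0.93 (SE 0.048). Mef2a was at 112 ± 3.28 CPM against 104 ± 9.17 CPM (SD, n = 3), with a log2 fold change of 0.10 (SE 0.068). Since the rule drew on this comparison, none of these values carries a test. Against a log2 fold change of 1 in size, the fold cutoff of the study, the value of Mef2c lay just inside and that of Mef2d just outside. Of the 20560 genes tested, 1.50% were lower past that fold with an adjusted p under 0.05, 7.51% were lower and 5.01% higher at an adjusted p of 0.05 alone, and 15.6% were lower without overlap between the groups. The loss was larger in absolute terms for Mef2d. The summed FPKM of the 3 members averaged 50.6 in PRDM13-OE + dox retinas and 92.7 in wildtype + dox retinas. The share held by Mef2a was 13.7% in the former and 7.10% in the latter, while the share of Mef2c was 4.59% and 5.89%.

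Other transcripts were lower in the same libraries. Over the 7 cone markers the summed level was 496 to 544 CPM in PRDM13-OE + dox and 1133 to 1173 CPM in wildtype + dox retinas, and 7 of 7 passed an adjusted p of 0.05 as lower. The 8 rod markers summed to 50349 to 57062 CPM against 69130 to 70985 CPM, and 6 of 8 passed as lower. Endothelial markers, of a cell type that also expresses Mef2c, summed to 206 to 237 CPM against 403 to 426 CPM, and 5 of 6 passed as lower. The 5 red blood cell markers summed to 0.706 to 1.19 CPM against 31.0 to 77.9 CPM, and 5 of 5 passed as lower. Bipolar markers summed to 480 to 533 CPM against 596 to 653 CPM, with 3 of 5 passed as lower and 1 as higher. RPE markers summed to 167 to 178 CPM against 218 to 252 CPM, and 4 of 8 passed as lower. Lens markers summed to 4.64 to 26.1 CPM against 102 to 11242 CPM, and 11 of 11 tested passed as lower. Horizontal, ganglion and pericyte and smooth muscle markers also summed lower without overlap, with 1 of 3, 1 of 6 and 2 of 5 passed as lower. Muller glia markers summed to 4956 to 5271 CPM against 4575 to 5105 CPM, which overlapped, with 2 of 5 passed as higher and 2 as lower. Amacrine markers summed to 960 to 982 CPM against 1057 to 1132 CPM, and 2 of 6 passed as lower. Microglial markers summed to 76.0 to 82.9 CPM against 69.1 to 77.5 CPM, and 0 of 7 passed. The part of these cell types in the Mef2c and Mef2d values was not tested. With the summed lens level as a covariate over the 12 retinas, the log2 fold change was −0.99 (SE 0.17) for Mef2c and −1.05 (SE 0.11) for Mef2d, so the 2 genes changed sides of the fold cutoff.

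**Figure D2:**
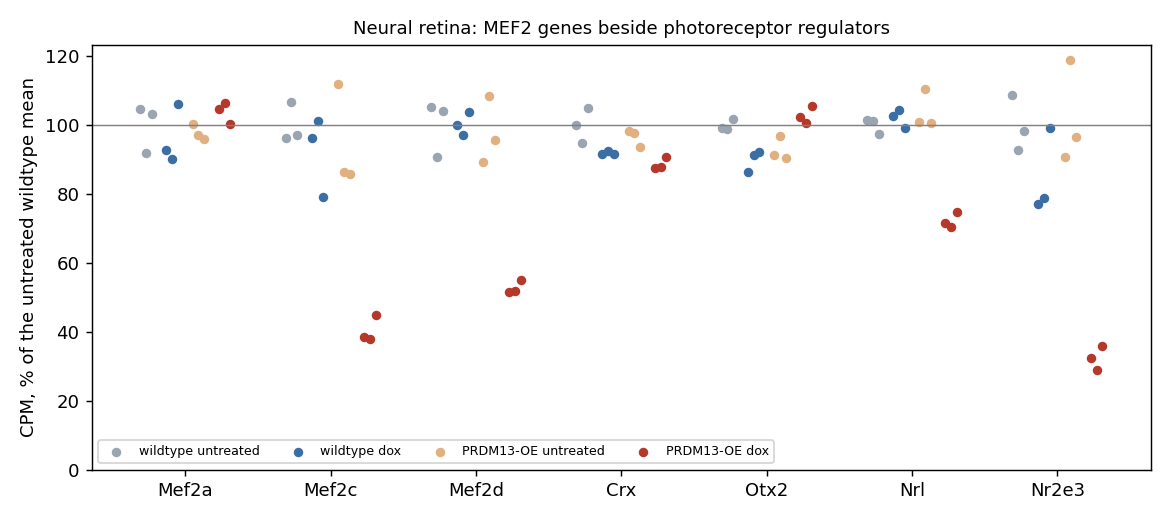
TMM-scaled CPM in 12 neural retinas as a percent of the untreated wildtype mean of each gene, 1 point a library, coloured by group. In PRDM13-OE + dox retinas Mef2c lies at 38.0 to 44.8%, Mef2d at 51.7 to 55.1%, Nr2e3 at 28.9 to 36.0% and Nrl at 70.4 to 74.9%, while Mef2a lies at 100.5 to 106.4%.

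PRDM13-OE retinas with dox were also compared with untreated PRDM13-OE retinas. The rule used the same libraries with dox, so the members' values carry no test here either. Mef2d was at 72.2, 86.0 and 75.3 FPKM in untreated PRDM13-OE retinas, all above the values with dox. Its log2 fold change with dox was −0.89 (SE 0.070), and 10.0% of the 20603 genes tested were lower without overlap. Mef2a was at 0.09 on the log2 scale (SE 0.058), and its 3 dox libraries lay above the 3 untreated ones in CPM, as for 10.6% of all genes. The margin was narrow, with the lowest dox library at 108.31 and the highest untreated one at 108.22 CPM. In FPKM the groups overlapped, at 6.65 to 7.06 with dox and 6.41 to 6.88 without it. Mef2c was at 6.65, 5.04 and 4.96 FPKM without dox, and its log2 fold change was −1.23 (SE 0.11). Beside these values, rod markers summed to 68250 to 75047 CPM, cone markers to 1211 to 1238 CPM, endothelial markers to 351 to 410 CPM, bipolar markers to 573 to 623 CPM and red blood cell markers to 28.4 to 64.5 CPM in untreated PRDM13-OE retinas, all above their range with dox. With dox 6 of 8 rod, 7 of 7 cone, 4 of 6 endothelial, 3 of 5 bipolar and 5 of 5 red blood cell markers passed as lower, and 1 bipolar marker passed as higher, beside 2.96% of all genes lower and 2.04% higher at an adjusted p of 0.05. These shares were 610 genes lower and 421 higher. With library sizes in place of TMM the balance turned, to 472 lower and 677 higher. Without PRDM13-OE + dox retina 2, 369 passed as lower and 236 as higher. Amacrine, ganglion and pericyte and smooth muscle markers also summed lower without overlap, with 1 of 6, 0 of 6 and 0 of 5 passed. Muller glia markers (2 of 5 passed as higher, 1 as lower) and microglial markers (0 of 7 passed) summed higher without overlap. Their part in the MEF2 values was not tested.

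Dox alone and the knock-in alone were compared in the retina. In wildtype retinas with dox against untreated ones, the log2 fold change was −0.05 (SE 0.077) for Mef2a, 0.01 (SE 0.062) for Mef2d and −0.11 (SE 0.090) for Mef2c, given with no test because the rule used the wildtype + dox libraries. Over all genes 0.00485% were higher and 0.00% lower there at an adjusted p of 0.05. Untreated PRDM13-OE retinas against untreated wildtype retinas, libraries that the rule did not use, gave −0.03 (SE 0.073) for Mef2a, −0.07 (SE 0.10) for Mef2c and −0.03 (SE 0.081) for Mef2d, each with an edgeR adjusted p of 0.995. In that comparison 0 of 3 members passed, 0 had an unadjusted p under 0.05, and DESeq2 passed 0. Over all genes 0.00484% were higher and 0.00% lower at an adjusted p of 0.05, and 3.76% had an unadjusted p under 0.05. The difference between the dox effects of the genotypes, over all 12 retinas, was −1.11 (SE 0.15) for Mef2c, −0.89 (SE 0.098) for Mef2d and 0.14 (SE 0.098) for Mef2a on the log2 scale, given with no test because it contains the comparison used by the rule.

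**Figure D3:**
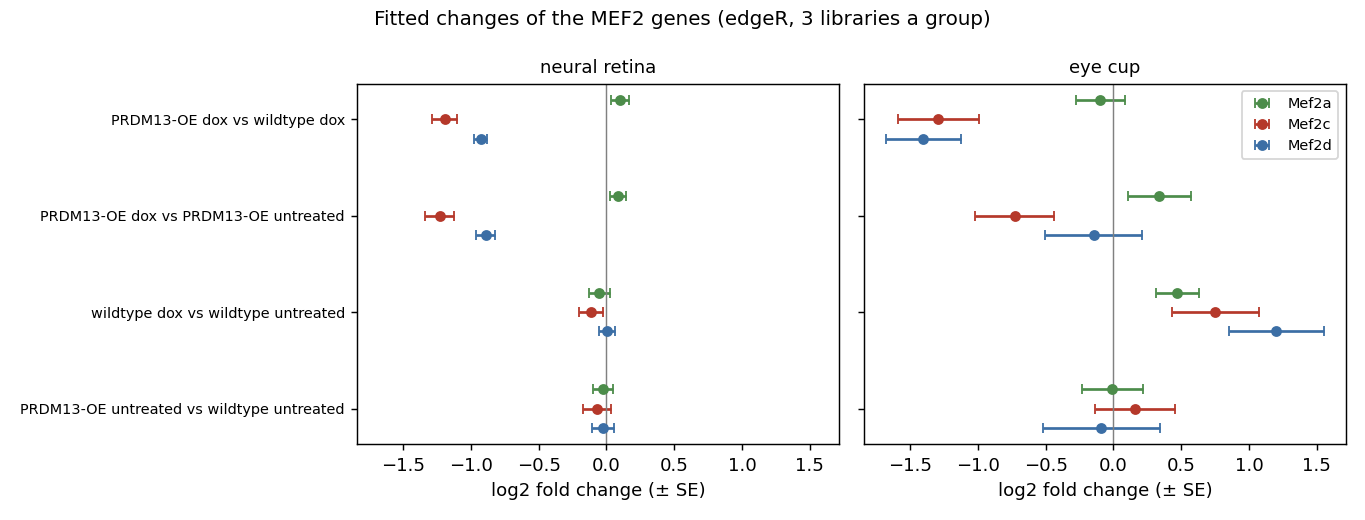
Fitted log2 fold changes with SE (horizontal bars) of Mef2a, Mef2c and Mef2d in 4 comparisons of neural retina (left) and eye cup (right), 3 libraries a group. In the retina the points of Mef2c and Mef2d lie near −1.2 and −0.9 in both comparisons with PRDM13-OE + dox and near 0 in the other two, while Mef2a lies near 0 in all 4.

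The eye cups gave the same comparisons in libraries that the rule did not use, although from the same mice. Mef2d was at 21.1, 13.0 and 22.3 FPKM in PRDM13-OE + dox eye cups and at 54.2, 52.1 and 44.5 FPKM in wildtype + dox eye cups. Mef2c was at 0.913, 1.41 and 1.44 FPKM against 3.78, 3.43 and 2.07 FPKM. Neither gene overlapped between these groups, as for 8.86% of the 21758 genes tested that were lower without overlap. Mef2a was at 4.69, 3.91 and 4.57 FPKM against 5.06, 4.82 and 4.34 FPKM, and its groups overlapped.

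The fitted log2 fold changes in eye cups were −1.29 (SE 0.30) for Mef2c, −1.40 (SE 0.27) for Mef2d and −0.10 (SE 0.18) for Mef2a. None of the 3 passed in edgeR, with adjusted p-values of 0.597, 0.597 and 0.854, where 0.0138% of all genes were lower at an adjusted p of 0.05. Unadjusted, edgeR's p was 0.00303 for Mef2c and 0.00119 for Mef2d, and 8.24% of all genes had an unadjusted p under 0.05. DESeq2 passed 2 of 3, with adjusted p-values of 0.0459 for Mef2c and 0.00139 for Mef2d, and over all 21758 genes it passed 74 as lower and 73 as higher. Without PRDM13-OE + dox eye cup 3, edgeR passed Mef2c and Mef2d, with adjusted p-values of 0.0388 and 0.0212, and so did Nrl (0.0335), Crx (0.0472) and Nr2e3 (0.0122). Without that library 1468 of 21237 genes passed as lower and 741 as higher, against 3 and 1 of 21758 with it, so the calls of the members came with those of many other genes.

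Retinal transcripts varied widely among the eye cups. Summed rod markers were at 11827, 5209 and 34672 CPM in PRDM13-OE + dox and at 45611, 34872 and 24021 CPM in wildtype + dox eye cups. The ranges overlapped through PRDM13-OE + dox eye cup 3 and wildtype + dox eye cup 3. Skeletal muscle markers, of a tissue that expresses Mef2c, summed to 338 to 2558 CPM against 246 to 594 CPM, which overlapped, and 0 of 8 passed. Red blood cell markers summed to 12.1 to 14.7 CPM against 236 to 568 CPM, and 3 of 5 passed as lower. Endothelial markers summed to 136 to 328 CPM against 335 to 359 CPM, lens markers to 14.0 to 385 CPM against 603 to 2894 CPM and bipolar markers to 299 to 470 CPM against 487 to 763 CPM, all without overlap, and 0 of 6, 0 of 11 and 0 of 5 passed. The part of muscle, blood, endothelium, lens and bipolar cells in the eye cup values was not tested. With the summed rod level as a covariate over the 12 eye cups, a setting added after the data were seen, the difference on the log2 scale was −1.11 (SE 0.33, edgeR adjusted p = 0.633) for Mef2c and −0.97 (SE 0.27, edgeR adjusted p = 0.564) for Mef2d. In the same fit Nrl moved from −0.95 to 0.02, Crx, the cone-rod homeobox factor, from −0.78 to 0.24, and Nr2e3 from −1.87 to −0.78 (SE 0.27, edgeR adjusted p = 0.72). The rod markers summed in this covariate were themselves lower in PRDM13-OE + dox against wildtype + dox retinas, with 6 of 8 passed. The covariate therefore does not measure retinal content alone, and what lies behind these shifts was not tested.

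**Figure D4:**
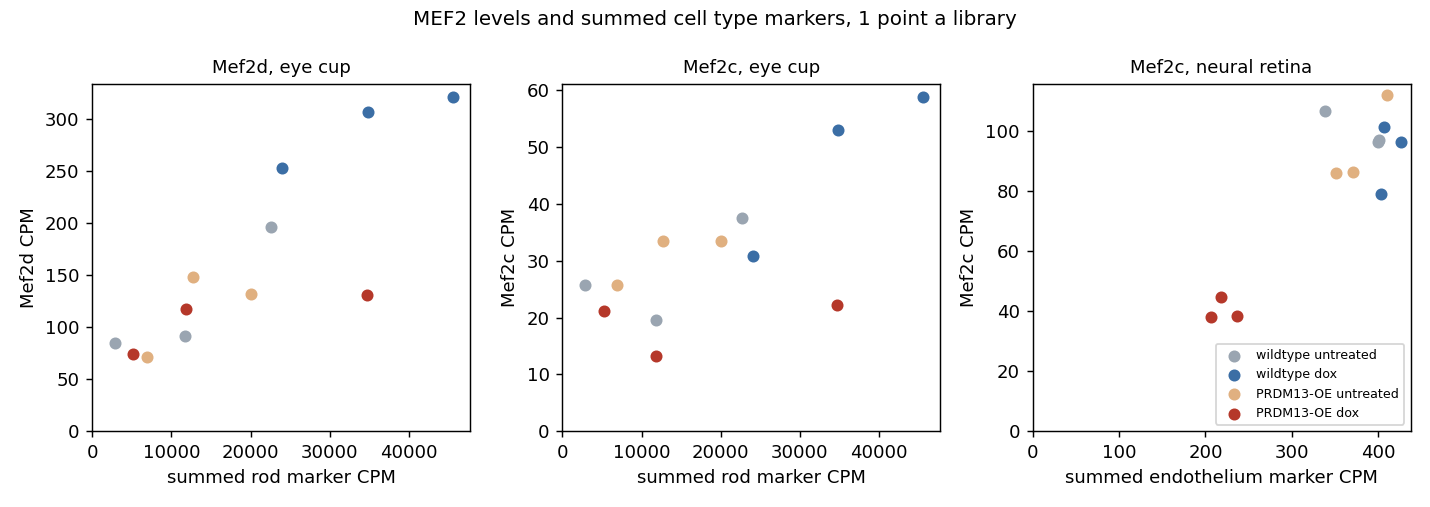
CPM of Mef2d and Mef2c in 12 eye cups against the summed CPM of 8 rod markers, and CPM of Mef2c in 12 neural retinas against the summed CPM of 6 endothelial markers, 1 point a library. Rod markers range from 5209 to 34672 CPM in PRDM13-OE + dox and from 24021 to 45611 CPM in wildtype + dox eye cups, and the 3 PRDM13-OE + dox retinas are lowest on both axes of the right panel.

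In wildtype eye cups the fitted values of all 3 members were above 0 with dox, as were the rod markers. Mef2d was at 36.5, 14.7 and 16.2 FPKM in untreated wildtype eye cups, all below the values with dox, and Mef2c was at 2.66, 1.70 and 1.32 FPKM, which overlapped them. Mef2a, at 4.05, 3.54 and 2.97 FPKM, also lay below its values with dox, and 22.1% of the 21799 genes tested were higher without overlap. The log2 fold changes were 0.47 (SE 0.16) for Mef2a, 0.75 (SE 0.32) for Mef2c and 1.20 (SE 0.35) for Mef2d. None passed in edgeR, with adjusted p-values of 0.107, 0.164 and 0.0845, whereas all 3 had an unadjusted p under 0.05 and DESeq2 passed 1 (Mef2d). Over all genes in edgeR, 29.9% had an unadjusted p under 0.05 and 0.00% passed as higher, while DESeq2 passed 2342 of 21799 as higher. Summed rod markers were at 22648, 2889 and 11768 CPM in the untreated wildtype eye cups, all below the 3 with dox. Cone, amacrine, ganglion and horizontal markers also summed lower without dox, and RPE (26851 to 43013 CPM against 9307 to 20491 CPM with dox) and microglial markers higher, all without overlap, and their part was not tested. With the rod covariate the change of Mef2d was 0.65 (SE 0.29, edgeR adjusted p = 0.892).

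Within PRDM13-OE eye cups, Mef2c was at 2.28, 2.42 and 1.79 FPKM without dox, above all 3 values with dox. The difference was −0.73 on the log2 scale (SE 0.29), with an edgeR adjusted p of 0.975 over all genes and 0.0403 before adjustment. Over all genes 4.61% were lower without overlap, 0.0139% passed as lower and 4.14% had an unadjusted p under 0.05. Mef2d, at 26.5, 25.1 and 13.1 FPKM without dox, overlapped its values with dox (−0.15, SE 0.36, edgeR adjusted p = 0.981), and Mef2a was at 0.34 (SE 0.23, edgeR adjusted p = 0.975), and DESeq2 passed 0 of 3. Summed rod markers, at 12687, 20011 and 6869 CPM without dox, overlapped those with dox. Red blood cell markers summed to 12.1 to 14.7 CPM with dox against 569 to 1159 CPM without it, and 3 of 5 passed as lower. RPE markers summed to 7480 to 21069 CPM against 21504 to 49631 CPM, also without overlap, and 0 of 8 passed. The part of blood and RPE in the Mef2c values was not tested. The untreated genotypes differed by −0.01 (SE 0.22) for Mef2a, 0.16 (SE 0.30) for Mef2c and −0.09 (SE 0.43) for Mef2d on the log2 scale, each with an edgeR adjusted p of 1. There 0 of 3 had an unadjusted p under 0.05 and DESeq2 passed 0, beside 0.00% of all genes passed in either direction and 1.87% with an unadjusted p under 0.05. The difference of the dox effects between genotypes was −1.49 (SE 0.44) for Mef2c and −1.37 (SE 0.52) for Mef2d, with edgeR adjusted p-values of 0.753 for both. Unadjusted p-values were 0.00546 and 0.022, where 6.40% of all genes were under 0.05 and 0.00% passed as lower, and DESeq2 passed 0 of 3.

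Between the tissues, every member was higher in the retina. In untreated wildtype mice, retina against eye cup of the same 3 mice gave 1.82 on the log2 scale (SE 0.34, edgeR adjusted p = 0.0027) for Mef2d, 1.62 (SE 0.24, adjusted p = 0.000856) for Mef2c and 0.93 (SE 0.14, adjusted p = 0.00103) for Mef2a. This fit did not use the pairing by mouse, so its SE and p treat the tissues as separate samples. Values with the mouse as block are given at the end. At an adjusted p of 0.05, 29.0% of the 21979 genes tested were higher in the retina, so 3 of 3 is to be read against that share.

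Regulators of MEF2 activity had small fitted changes in the retina. Of 45 pathway genes outside the family, 8 passed against wildtype + dox, where 7.51% of all genes passed as lower and 5.01% as higher. These 45 include the photoreceptor regulators and MEF2 targets described below, so the 8 are not all regulators of MEF2 activity. Of the 5 co-repressors, Hdac9 alone passed an adjusted p of 0.05 in PRDM13-OE + dox against wildtype + dox retinas, with a log2 fold change of −0.24 (SE 0.055), and none of the 5 passed against untreated PRDM13-OE retinas. Of 13 activating kinases and calcineurin subunits, Camk2b (a subunit of calcium/calmodulin-dependent kinase II) was higher at 0.23 (SE 0.054) and Camk2g lower at −0.20 (SE 0.052). Camk2b rose by 0.28 (SE 0.055, edgeR adjusted p = 0.00918) against untreated PRDM13-OE retinas, the one gene of that list to pass there. It did not pass without PRDM13-OE + dox retina 1 (edgeR adjusted p = 0.0656) or 3 (edgeR adjusted p = 0.0535), and the list count was 2 with library sizes, filterByExpr or robust fitting. Among the 3 SIK kinases, which phosphorylate class IIa histone deacetylases, Sik3 passed at −0.21 (SE 0.051) against wildtype + dox and none passed against untreated PRDM13-OE. None of the 4 co-activators (Ep300, Crebbp, Ncoa2 and Carm1) passed in either comparison in edgeR, while 1 passed against wildtype + dox with DESeq2 or with a replicate block. These counts against wildtype + dox rested on single libraries. The co-repressor and kinase counts were 0 without PRDM13-OE + dox retina 1, the kinase count was 0 without retina 3, and the SIK count was 0 without retina 2. The co-repressor count was 2 without wildtype + dox retina 2, and the kinase count was 1 without PRDM13-OE + dox retina 2 or any 1 wildtype + dox retina. Median log2 fold changes against wildtype + dox were 0.03, 0.00, −0.16 and −0.05 for these 4 lists, beside 0.01 over all genes tested. No gene of these lists reached a log2 fold change of 1 in size.

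Among photoreceptor regulators that act beside MEF2, Nr2e3 and Nrl were lower with PRDM13-OE + dox while Crx did not pass. Nr2e3, the rod nuclear receptor, was at 187 ± 20.5 CPM in PRDM13-OE + dox and 491 ± 71.5 CPM in wildtype + dox retinas (SD, n = 3), a log2 fold change of −1.40 (SE 0.099). Nrl was at −0.50 (SE 0.034). These were the 2 of 5 that passed as lower, and Otx2 was the 1 that passed as higher. Otx2 was at 0.19 (SE 0.050), Neurod1 at −0.07 (SE 0.046) and Crx at −0.05 (SE 0.034), and Crx turned to 0.03 with library sizes in place of TMM. With the lens covariate Otx2 was at 0.094 (SE 0.085). Against untreated PRDM13-OE retinas, Nr2e3 fell by 1.66 (SE 0.10, edgeR adjusted p = 7.06e-07) and Nrl fell by 0.53 (SE 0.051, edgeR adjusted p = 3.88e-05) on the log2 scale. Otx2, Neurod1 and Crx did not pass there, with edgeR adjusted p-values of 0.198, 0.194 and 0.204.

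Among genes listed as MEF2 targets, the neuronal targets Nr4a1 (0.78, SE 0.34), Arc (0.42, SE 0.23), Bdnf (−0.24, SE 0.17) and Jun (0.01, SE 0.14) spread to both sides of 0 on the log2 scale in PRDM13-OE + dox against wildtype + dox retinas, and none of these 4 passed. Of the 15 targets tested, 1 passed as lower there and 1 against untreated PRDM13-OE retinas, and up to 3 passed under other settings. The median of the list was 0.00. In the eye cups 0 of 46 pathway genes outside the family passed in PRDM13-OE + dox against wildtype + dox by edgeR or by DESeq2, and 6 had an unadjusted p under 0.05 in edgeR, beside 8.24% of all genes. There Nr2e3 was at −1.87 (SE 0.59, edgeR adjusted p = 0.597), Nrl at −0.95 (SE 0.59, adjusted p = 0.616) and Crx at −0.78 (SE 0.61, adjusted p = 0.66).

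The genes whose level followed each member most closely differed between the members. Over the 12 retinas, among 14853 genes with a mean of at least 1 CPM, Vtn, Ppm1j, Rtbdn and Mfng were among the 5 with the highest Pearson r of log2(CPM + 0.5) with Mef2c (0.977 to 0.978). With Mef2d the highest r was that of Acsl1 (0.993), a long-chain acyl-CoA synthetase, followed by Lrit2, Agpat5, Sirpa and Elfn1 (0.986 to 0.990). Over the 9 retinas outside PRDM13-OE + dox, r with Mef2c was 0.483 to 0.562 for these 4 genes, and r with Mef2d was 0.923 for Acsl1, 0.951 for Sirpa and 0.684 to 0.723 for the other 3. For Mef2a the highest values over the 12 retinas were lower, from 0.863 to 0.871 (Ppp6r3, Rnf11, Cfap206, Sanbr and Gm4419). Over the 9 retinas outside PRDM13-OE + dox, r with Mef2a was 0.833 to 0.943 for these 5 genes, so that order did not hold there. The r between Mef2c and Mef2d was 0.921 over the 12 retinas and −0.668 over the 9 outside PRDM13-OE + dox.

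In the eye cups, among 15688 genes, Mef2d was closest to Ppp2r5e (0.977), Casz1, Klhl29, Rnf185 and AW549877, and Mef2a to Gm48677 (0.969), Tomm20, Rhbdl3, Adck2 and Ccnt1. Mef2c was closest to Ccn4 and Rgs9, the latter a regulator of the photoreceptor G protein (both 0.881), Cep250, Wscd2 and Gas7. Over the 12 eye cups the r of Mef2c with Mef2d was 0.758, and over the 9 outside PRDM13-OE + dox it was 0.859. These libraries share mice across tissues and differ in rod content, so the r values describe these libraries and carry no p. By Spearman's rank correlation, 0 to 2 of the 5 closest genes remained among the 5 for each member in retinas, and 1 to 4 in eye cups. With only genes at a mean of at least 5 CPM, 3 to 5 remained in retinas and 4 to 5 in eye cups.

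Reads of overlapping genes on the other strand cannot be told apart from those of the members, because the strand setting of the counting was not given in the sources used here. Mef2a shares part of its span with Lysmd4 on the plus strand, which had 160 to 671 counts a library, and Mef2a itself had 606 to 2336. The antisense RNA over the 3′ end of Mef2d (1700113A16Rik) had 7 to 54 counts beside 1152 to 11303 for Mef2d. The one over Mef2c (ENSMUSG00000097265) had 0 to 30 beside 278 to 2034. The 3 libraries of a group came from separate mice, and whether these shared a litter or day was not given, so p-values measure the spread between these mice.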

How the data were processed

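PolyA RNA of neural retina and eye cup was sequenced on an Illumina platform. The authors deposited 1 table with raw read counts and FPKM per gene for the 24 libraries. The submitters' processing notes name GRCm39, HISAT2 and CASAVA. The counting tool and strand setting are not given in the sources used here. Columns with the authors' own comparisons (fold changes and p-values) were not used. A gene entered a comparison when its libraries together held 10 counts or more. The counts were tested with edgeR 4.0.16 (R 4.3.3; TMM scaling, quasi-likelihood test, two-sided, Benjamini-Hochberg adjustment over all genes tested). DESeq2 1.42.0 was an alternative. CPM were TMM-scaled within each tissue. Levels were compared between genes by FPKM only. Depth was 15825059 to 24908314 counts a library, and 0 pairs of libraries held identical values.

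The members and gene lists were chosen with earlier results of these data known. Named genes were the members, Mef2b, the 5 genes with the highest r with each member in each tissue, and pathway genes from fixed lists. The fits were tested on simulated data. Other settings were library-size scaling, no filter or filterByExpr, robust fitting, 1 fit per tissue, a replicate block, crystallin genes left out, lens and rod covariates, leaving out each library and, for the closest genes, Spearman's rank correlation or a mean of at least 5 CPM. Retina and eye cup of 1 mouse share a number in the labels, so the numbers pair the tissues; a fit with the mouse as block was the alternative there (r of the deviations −0.00105 to 0.179 over 12 mice). Within a tissue, same-numbered mice of different groups are different mice. One gene of the lists is not reported here.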

Additional observations from a re-analysis of the deposited data

How the results depend on the processing

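All values here are log2 fold changes. Not all of the members' 33 values were checked for size against their spread. That check covered all members in PRDM13-OE + dox against wildtype + dox retinas and in the retinal difference of dox effects. It also covered Mef2c in retinas with dox against untreated ones of either genotype. The other values were checked only for a turned sign or a changed call. Among the values checked for size, Mef2c moved beyond its spread with the lens covariate (−0.99). Mef2d did so with the lens covariate (−1.05) and library sizes (−0.84). These shifts were in PRDM13-OE + dox against wildtype + dox retinas. In PRDM13-OE + dox against wildtype + dox retinas, library sizes in place of TMM also moved the gene counts. Past both cutoffs they went from 186 higher and 309 lower to 279 higher and 269 lower. At an adjusted p of 0.05 alone they went from 1030 higher and 1545 lower to 2175 higher and 1007 lower, so the balance turned. With the lens covariate 173 passed as higher and 383 as lower, and without PRDM13-OE + dox retina 2 the counts were 532 and 972. In eye cups of the same groups, DESeq2 passed 2 members, Mef2c (−1.31) and Mef2d (−1.42). Leaving out 1 library gave −1.52 to −1.11 for Mef2c and −1.58 to −1.21 for Mef2d, with 0 to 2 members passed. In wildtype eye cups with dox, 1 member passed, Mef2d, with DESeq2 (1.22) and with no filter (1.20). Leaving out 1 library gave 0.96 to 1.74 there, with 0 to 1 passed, and Mef2d passed without untreated wildtype eye cup 1 (1.74, adjusted p = 0.0192). As higher passed 1982 of 21164 genes without that library, 2342 of 21799 with DESeq2 and 926 of 29063 with no filter.

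Signs turned for 9 member values, none over 0.16 in size. In wildtype retinas with dox, Mef2d was at −0.0053 with library sizes and at −0.058 to 0.045 without 1 library. Between untreated retinas, Mef2c was at 0.0089 with the lens covariate, Mef2a at −0.082 to 0.013 and Mef2d at −0.10 to 0.036 without 1 library. Between untreated eye cups, Mef2a was at 0.048 with library sizes, 0.032 with DESeq2 and 0.039 with the lens covariate, and Mef2d at 0.056 with the lens covariate. Without 1 library these were −0.12 to 0.19 for Mef2a, −0.047 to 0.49 for Mef2c and −0.28 to 0.45 for Mef2d. With dox in PRDM13-OE eye cups, Mef2d was at −0.39 to 0.034 without 1 library. The eye cup interaction of Mef2a was at 0.015 with the rod covariate, added after the data were seen, and at −0.24 to 0.052 without 1 library. The same covariate put Crx at 0.24 and Nrl at 0.016 in PRDM13-OE + dox against wildtype + dox eye cups. The causes were not tested.

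In PRDM13-OE + dox against wildtype + dox retinas, the co-repressor and SIK counts each went from 1 to 0 with the lens covariate and in 1 fit per tissue, and to 2 with no filter. The SIK count was 0 with library sizes, the kinase count 0 with the lens covariate and the co-repressor count 2 with robust fitting. With library sizes Hdac9 was at −0.15, Camk2g at −0.11, Sik3 at −0.12 and Otx2 at 0.28, and with the lens covariate Sik3 was at −0.38. The co-activator count went from 0 to 1 with DESeq2, no filter, robust fitting, crystallin genes left out and the replicate block.

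A replicate block on the number in the labels changed no sign in 33 of 33 member values, and no call among those that carried one. It moved the target gene count from 1 to 2 in both retinal comparisons with PRDM13-OE + dox. For Mef2d in PRDM13-OE retinas with dox, the value with the replicate block was −0.89, and between retina and eye cup of the same mice it was 0.94 for Mef2a, 1.67 for Mef2c and 1.94 for Mef2d. Deviations of same-numbered mice of different groups had r from −0.232 to 0.18 in retinas (2 of 18 pairs over 0.1) and from −0.553 to 0.634 in eye cups (7 of 18 pairs over 0.1), so not every pair was over 0.1.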
